A study of Mus musculus with 2 samples.

Results

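The hypoxia-inducible factor (HIF) genes described here are 10 mouse genes picked by name, Hif1a, Egln1, Egln3, Ndrg1, Vegfa, Adm, Ankrd37, Bnip3, Car9 and P4ha1, out of 54532 genes in the deposited table. They cover the oxygen-regulated transcription factor subunit, enzymes that control it, and targets that lie outside glycolysis. Each of the 10 symbols stood at 1 row, and all 10 reached a level of 1 CPM (counts scaled to a library total of 1000000) in both libraries. The cells were CMT167R, a derivative of the mouse lung carcinoma line CMT167 that the labels describe as resistant to anti-PD1, an antibody against an inhibitory receptor of T cells. An untreated culture (CON) was set against a culture given 50 nM of a compound called PKCi for 24 h, with 1 library each. The labels name neither the compound behind PKCi nor the oxygen level of the cultures, and neither library is labelled as hypoxic. They also do not say whether the resistant cells are 1 clone.

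HIF is a pair of proteins, an alpha subunit such as HIF-1alpha and the constant partner ARNT. In oxygenated cells the EGLN enzymes hydroxylate prolines of the alpha subunit, the VHL ubiquitin ligase then recognises it, and the proteasome destroys it. When oxygen is low the alpha subunit escapes, enters the nucleus and binds a short DNA core, ACGTG or GCGTG, near genes of blood vessel growth, pH control, mitochondrial turnover and glucose use. Control of HIF-1alpha is thus largely at the protein, which messenger RNA does not measure.

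The DNA in front of RefSeq starts of these genes is shown because the HIF core is the feature that many targets share. RefSeq promoters (build GRCm38.p6) were matched by symbol for 9 of the 10 genes, all but Ndrg1. The 250 bases before the annotated start were searched on both strands for ACGTG and GCGTG, and for Vegfa the upstream-most of its starts was taken. ACGTG was found in 7 of the 9 windows and GCGTG in 5, either of them in 8 and neither in 1. Among all 32851 promoter windows of the same length, 16.6% held ACGTG, 28.2% held GCGTG and 38.6% held either. Those windows include genes that were not measured and were not matched to the 9 for their share of G and C bases. The genes were picked as HIF targets and regulators, so the share among them is a description only. A match is a run of letters and not a measured binding site. The windows below are written 5′ to 3′ along the gene's strand, with each core in capitals on whichever strand it lies. On the opposite strand the first core reads CACGT. There the second core reads CACGC. A palindrome that holds the first core on both strands, as in Bnip3, was counted once on each. They show 1 gene, Ankrd37, with a much higher level in the PKCi library and an ACGTG core at its RefSeq start. Its window lies inside the gene as counted, as does that of Hif1a, which is not shown. Also shown are 1 gene with a much higher level and no core in its upstream-most window, the gene that was at least 2-fold lower, and 3 genes with smaller differences.
Ankrd37 (chr8:45999851-46000100, minus strand): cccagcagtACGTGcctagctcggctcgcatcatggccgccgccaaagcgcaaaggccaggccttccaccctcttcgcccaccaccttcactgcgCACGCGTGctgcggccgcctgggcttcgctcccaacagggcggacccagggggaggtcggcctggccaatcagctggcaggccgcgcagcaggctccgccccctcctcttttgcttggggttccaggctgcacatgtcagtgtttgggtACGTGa
Vegfa (chr17:46032378-46032627, minus strand): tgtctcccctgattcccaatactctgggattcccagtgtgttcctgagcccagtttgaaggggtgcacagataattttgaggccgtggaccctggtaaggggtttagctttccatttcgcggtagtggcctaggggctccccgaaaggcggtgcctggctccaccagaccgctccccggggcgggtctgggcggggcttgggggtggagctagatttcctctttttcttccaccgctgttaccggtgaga
Adm (chr7:110627407-110627656, plus strand): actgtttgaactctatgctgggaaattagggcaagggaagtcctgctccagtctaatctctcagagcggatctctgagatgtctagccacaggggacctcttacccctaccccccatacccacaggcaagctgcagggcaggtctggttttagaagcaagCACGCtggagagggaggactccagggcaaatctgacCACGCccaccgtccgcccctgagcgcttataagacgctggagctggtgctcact
P4ha1 (chr10:59323046-59323295, plus strand): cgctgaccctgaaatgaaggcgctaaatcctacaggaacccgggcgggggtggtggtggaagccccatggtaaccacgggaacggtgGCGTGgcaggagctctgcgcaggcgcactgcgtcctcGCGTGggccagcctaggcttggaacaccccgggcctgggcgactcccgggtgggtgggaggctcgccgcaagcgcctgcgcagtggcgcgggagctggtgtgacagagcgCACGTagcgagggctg
Bnip3 (chr7:138909507-138909756, minus strand): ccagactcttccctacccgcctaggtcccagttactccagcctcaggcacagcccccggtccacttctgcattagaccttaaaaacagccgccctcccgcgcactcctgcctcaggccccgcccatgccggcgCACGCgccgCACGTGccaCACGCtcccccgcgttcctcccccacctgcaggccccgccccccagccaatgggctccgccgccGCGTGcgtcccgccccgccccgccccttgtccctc
Egln3 (chr12:54203875-54204124, minus strand): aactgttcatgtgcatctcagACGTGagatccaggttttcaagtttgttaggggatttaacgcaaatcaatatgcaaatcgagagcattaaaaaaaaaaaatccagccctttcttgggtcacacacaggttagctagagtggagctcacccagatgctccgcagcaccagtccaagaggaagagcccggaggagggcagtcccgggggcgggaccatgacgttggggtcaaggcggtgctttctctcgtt
Ankrd37 had its nearest ACGTG from 6 to 2 bases before its RefSeq start, which lies inside the gene as counted. P4ha1 had one on the opposite strand from 16 to 12 bases before its start. Car9, whose window is not shown, held a single core, an ACGTG on the opposite strand from 18 to 14 bases before its start. The upstream-most Vegfa window held neither core. The window of its other RefSeq start (chr17:46025164-46025413, minus strand), which lies inside the gene, held both. A GCGTG lay from 218 to 214 and an ACGTG on the opposite strand from 211 to 207 bases before that start. The bases around both cores also read in frame as coding sequence of VEGF-A. Whether that window acts as a promoter was not tested. The Adm window held GCGTG only, in 2 places. With a core in 8 of the 9 windows, which leave out Ndrg1, its presence hardly varied and could not sort the genes by direction. Sites beyond the 250 bases were not searched. Ankrd37 and P4ha1 both had ACGTG close to the RefSeq start. The level of Ankrd37 was far higher and that of P4ha1 slightly lower in the PKCi library, as given below.

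The difference between the libraries varied widely over the 10 genes. Ndrg1, Ankrd37 and Vegfa were between 4.58-fold and 6.79-fold higher in the PKCi library, Car9, Bnip3 and Egln3 between 1.53-fold and 1.68-fold higher, Hif1a was nearly level, P4ha1 and Egln1 were slightly lower, and Adm was 2.74-fold lower. A gene was counted as different where log2((PKCi + 1)/(CON + 1)), in CPM, reached 1 or -1, a 2-fold difference. By that rule 3 of the 10 were higher and 1 was lower. Among all 12273 genes that reached 1 CPM in either library, the same rule took 6.53% as higher and 5.13% as lower. The 10 genes were chosen with earlier results of these data known, so these shares are a description only. The median log2 ratio was 0.61 over the 10 genes, with a range from -1.10 to 2.65, and -0.01 over all genes. With 1 library per group no difference has a replicate check and no test across conditions can be made. Intervals are exact 95% intervals from the counts, which compare these libraries and cover counting error only. Such intervals lay above 1 for 6 of the 10 genes and below 1 for 3, against 34.9% and 37.5% of all genes, so at this depth an interval that leaves out 1 is the usual case.

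**Figure D1:**
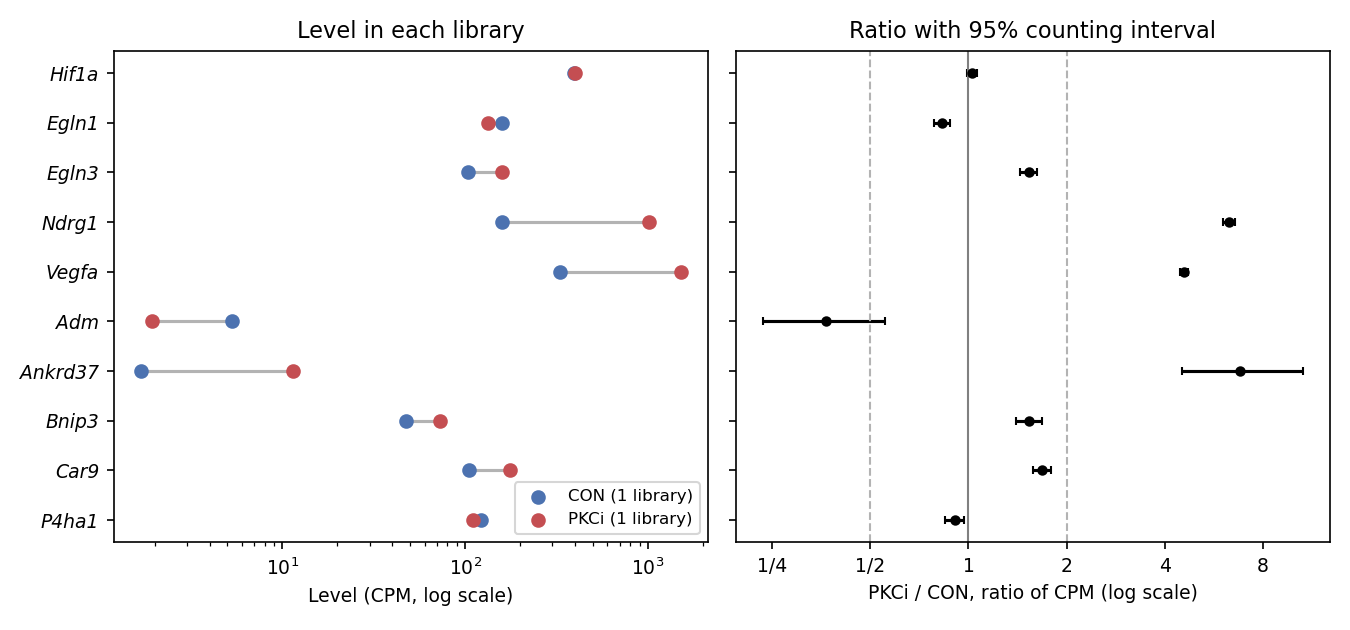
Left, the level of each HIF gene in the CON and PKCi libraries in CPM on a log axis, 1 point per library. Right, the ratio of CPM with its 95% counting interval, where dashed lines mark 2-fold; Ndrg1, Vegfa and Ankrd37 lie to the right of 2, and the interval of Adm, 1.80-fold to 4.28-fold lower, reaches across the 2-fold line.

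Hif1a, which encodes the oxygen-regulated HIF-1alpha subunit, is on chromosome 12 from 73901375 to 73947530 on the plus strand (ENSMUSG00000021109; GRCm38 coordinates of the deposited table here and below). It had 6309 counts in the untreated library and 6449 in the PKCi library, or 392 and 401 CPM. Its ratio was 1.02 (95% interval 0.988 to 1.06), so the difference was not detectable at this depth. Its relative Epas1, which encodes HIF-2alpha, stood at 47.4 and 48.1 CPM, and Arnt, which encodes the partner subunit, at 70.4 and 77.0 CPM. Hif3a, a further alpha subunit gene, had 0 counts in both libraries, which allows up to 0.186 CPM untreated and 0.187 CPM with PKCi (3 counts of the total). Per gene length (TPM, counts divided by gene length and scaled to the same total), Hif1a made up 88.2% of the summed Hif1a, Epas1 and Hif3a level untreated and 88.3% with PKCi.

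Egln1 and Egln3 encode oxygen-sensing prolyl hydroxylases that mark HIF alpha subunits for destruction, and both are themselves known HIF targets. They differed in opposite directions. Egln1 (ENSMUSG00000031987, chromosome 8 from 124908587 to 124949324, minus strand) had 2568 counts untreated and 2132 with PKCi, or 160 and 133 CPM, 1.20-fold lower (95% interval 1.14 to 1.27). Egln3 (ENSMUSG00000035105, chromosome 12 from 54178981 to 54203860, minus strand) had 1668 and 2545 counts, or 104 and 158 CPM, 1.53-fold higher (95% interval 1.44 to 1.63). Egln2, the family member that was not among the 10, was at 63.5 and 60.4 CPM. In TPM, Egln1 was 1.14 times the level of Egln3 untreated and 0.620 times with PKCi. The share of Egln3 in the summed TPM of the 3 genes was 36.7% untreated and 50.4% with PKCi, so the more abundant enzyme message changed from Egln1 to Egln3 between these libraries.

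The HIF control machinery was described with a list of 21 genes that includes Hif1a, Egln1 and Egln3. Past 2-fold were 1 of 19 measured genes (5.26%) on the higher side and 0 on the lower side, near the 6.53% and 5.13% of all genes. The log2 ratio was above 0 for 11 and below it for 8, and the median was 0.03. The gene past 2-fold was Kdm3a, a histone demethylase gene that is also a known HIF target, at 49.2 and 125 CPM. Ep300 and Crebbp, the coactivators that HIF recruits, were 1.92-fold and 1.61-fold higher. Vhl, the substrate receptor of the ligase, was at 30.1 and 40.0 CPM, 1.33-fold higher (95% interval 1.18 to 1.49). Its partner genes Elob, Eloc, Cul2 and Rbx1 were each lower in the PKCi library, between 1.15-fold and 1.28-fold. Ube2s, a ubiquitin-conjugating enzyme gene, was 1.70-fold lower.

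Ndrg1 had the highest log2 ratio of the 10 genes. It encodes a cytoplasmic stress and differentiation protein, known to be induced by hypoxia and by several other stresses. The gene (ENSMUSG00000005125) lies on chromosome 15 from 66929318 to 66969640 on the minus strand. It had 2576 counts untreated and 16202 with PKCi, or 160 and 1008 CPM, 6.30-fold higher (95% interval 6.04 to 6.57). Of the 12273 measured genes, 36 had a higher log2 ratio. In order of TPM over all genes Ndrg1 stood at rank 2374 untreated and 268 with PKCi. Among its family, Ndrg4 was 3.08-fold higher from a low level (54 and 166 counts, 95% interval 2.25 to 4.27), Ndrg3 was 1.53-fold lower, and Ndrg2 had 0 counts in both libraries. Ndrg1 made up 82.2% of the family's summed TPM untreated and 96.8% with PKCi.

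Vegfa, the vascular endothelial growth factor that drives the sprouting of blood vessels, had the largest difference in CPM. The gene (ENSMUSG00000023951) lies on chromosome 17 from 46016993 to 46032369 on the minus strand. It had 5333 counts untreated and 24395 with PKCi, or 331 and 1518 CPM, 4.58-fold higher (95% interval 4.45 to 4.72). Its log2 ratio was 2.19, exceeded by 92 of the measured genes. In order of TPM it stood at rank 647 untreated and 104 with PKCi. The other ligand genes went different ways. Vegfb was at 58.2 and 50.1 CPM and Pgf at 1.68 and 1.80 CPM. Vegfc, a growth factor of lymphatic vessels, was 2.45-fold higher from 38 to 93 counts, and Vegfd, a related ligand, was 2.59-fold lower from 88 to 34 counts. In summed ligand TPM the share of Vegfa was 65.9% untreated and 91.0% with PKCi.

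The signalling receptors of these ligands had few or no counts. Kdr, the main signalling receptor of VEGF-A, had 4 and 3 counts, Flt1 11 and 18, and Flt4 0 in both libraries. The neuropilin coreceptor genes were abundant and differed in opposite directions: Nrp1 was 1.85-fold lower (175 and 94.8 CPM) and Nrp2 1.70-fold higher (446 and 756 CPM).

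Adm, which encodes the vasodilator peptide adrenomedullin, was the only one of the 10 at least 2-fold lower. The gene (ENSMUSG00000030790) lies on chromosome 7 from 110627661 to 110629820 on the plus strand. It had 85 counts untreated and 31 with PKCi, or 5.28 and 1.93 CPM, 2.74-fold lower (95% interval 1.80 to 4.28). Its log2 ratio of -1.10 became -0.57 with a pseudocount of 5 CPM, which ends the 2-fold call. Of its receptor parts, Calcrl, the receptor itself, had 21 counts in each library. Of the accessory proteins that set which peptide the receptor binds, Ramp3 was 5.47-fold higher (9.45 and 51.7 CPM, 95% interval 4.59 to 6.54), Ramp1 was 2.92-fold lower (14.9 and 5.10 CPM, 95% interval 2.27 to 3.80), and Ramp2 had 0 counts in both libraries. Adm2, a related peptide gene, was at 23.2 and 31.4 CPM.

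**Figure D2:**
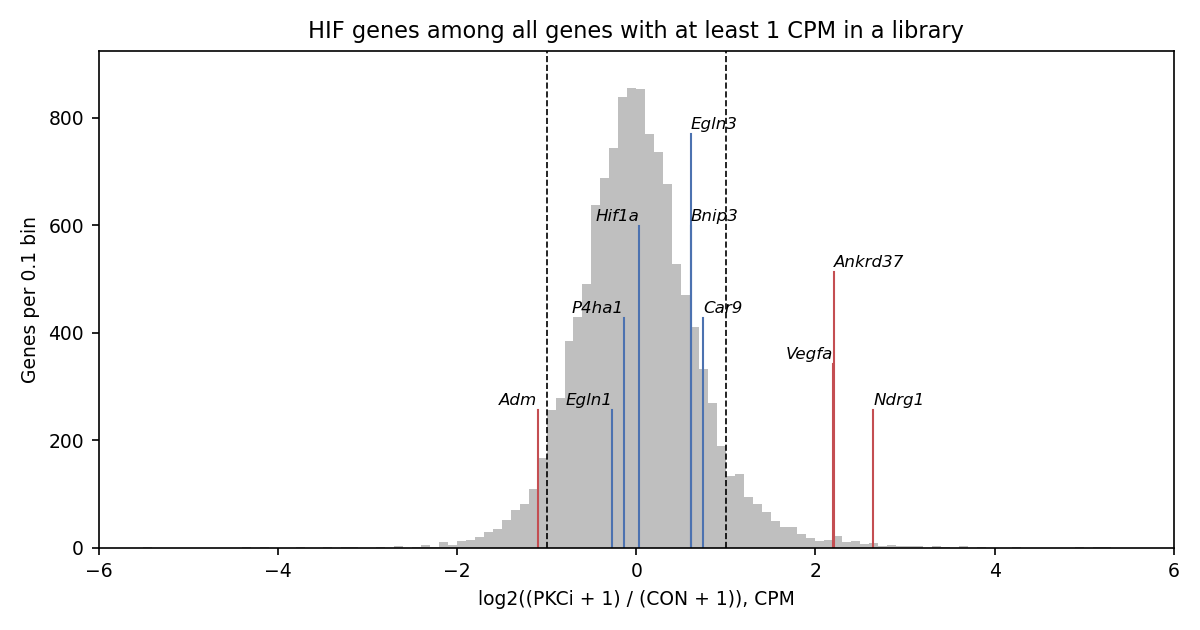
Distribution of the log2 ratio over the 12273 genes that reached 1 CPM in either library (grey bars, genes per bin of 0.1), with the 10 HIF genes as lines whose heights carry no value. Dashed lines mark 2-fold; red lines are the 4 genes past it, with Ndrg1 at 2.65, Ankrd37 at 2.21, Vegfa at 2.19 and Adm at -1.10, and blue lines the 6 within it.

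Ankrd37, an ankyrin repeat protein gene known as a HIF target, had the highest fold of the 10 but a low level. The gene (ENSMUSG00000050914) lies on chromosome 8 from 45996902 to 46005707 on the minus strand. It had 27 counts untreated and 183 with PKCi, or 1.68 and 11.4 CPM, 6.79-fold higher (95% interval 4.51 to 10.6). That interval is much wider than those of Ndrg1 and Vegfa, and it holds the fold of Ndrg1 and of Vegfa. The lowest log2 ratio of Ankrd37 over the other settings tried was 1.30, with a pseudocount of 5 CPM. On the opposite strand its span shares 57 bases with Ufsp2, which had 652 and 501 counts, and 6405 bases with Lrp2bp, which had 7 and 1. The strand setting of the counting is not given in the sources used here, so their part in the result was not tested.

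Car9 and Bnip3 stand for the pH and mitochondrial arms of the HIF target genes. Car9, a carbonic anhydrase on the cell surface that is widely used as a hypoxia marker in tumours, is on chromosome 4 from 43506966 to 43513729 on the plus strand (ENSMUSG00000028463). It had 1694 counts untreated and 2844 with PKCi, or 105 and 177 CPM, 1.68-fold higher (95% interval 1.58 to 1.79). Car12, another membrane carbonic anhydrase often grouped with it, had 1 and 0 counts. Bnip3, an outer mitochondrial membrane protein that recruits the autophagy machinery to mitochondria, is on chromosome 7 from 138890836 to 138909519 on the minus strand (ENSMUSG00000078566). It had 767 and 1176 counts, or 47.7 and 73.2 CPM, 1.54-fold higher (95% interval 1.40 to 1.68). Its relative Bnip3l, which does similar work, was 1.91-fold higher (82.7 and 158 CPM, 95% interval 1.79 to 2.04). A pseudogene of Bnip3l was listed with 80 and 217 counts, and reads could be split between the pair. In TPM the pair stood at nearly the same level untreated, 68.4 for Bnip3 and 69.6 for Bnip3l, and at 106 and 134 with PKCi.

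P4ha1, a catalytic subunit of the enzyme that hydroxylates prolines of collagen, is on chromosome 10 from 59323296 to 59373304 on the plus strand (ENSMUSG00000019916). It had 1955 counts untreated and 1771 with PKCi, or 122 and 110 CPM, 1.10-fold lower (95% interval 1.03 to 1.18). P4ha2, the other expressed alpha subunit, was at 32.4 and 38.9 CPM, and P4hb, the subunit they share, at 1576 and 1297 CPM. P4ha1 made up 85.1% of the alpha subunits' summed TPM untreated and 81.1% with PKCi.

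**Figure D3:**
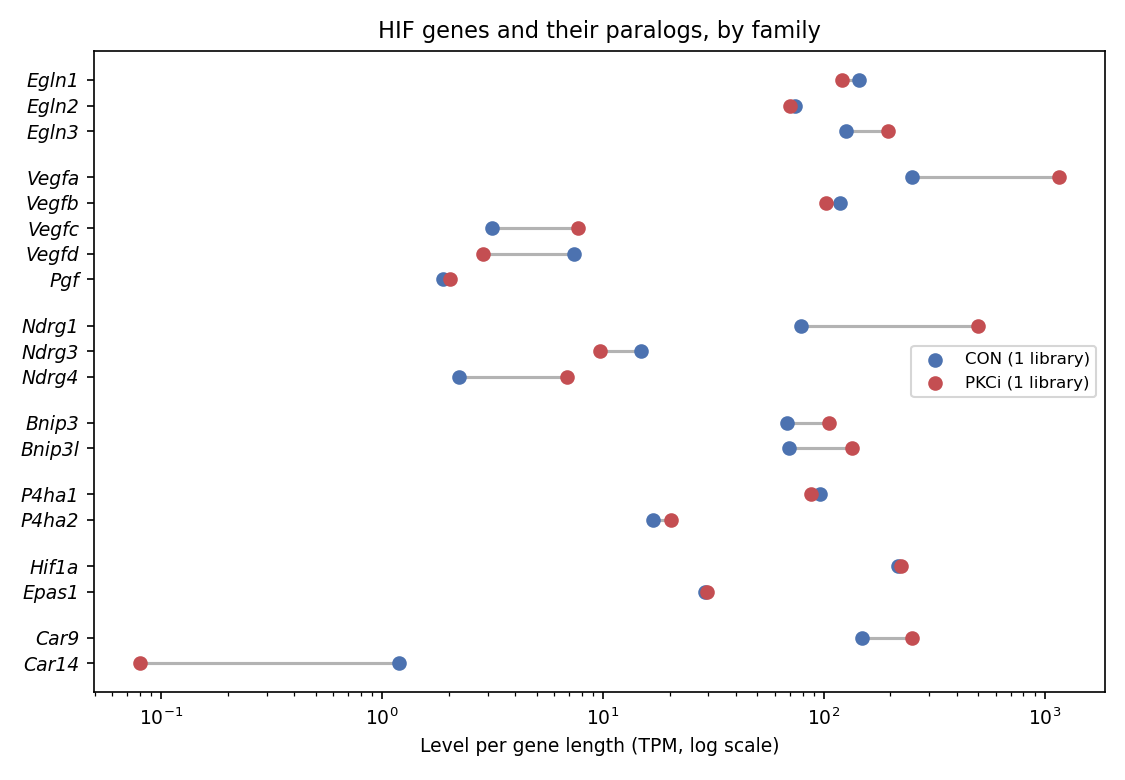
Level per gene length in TPM (log axis) of HIF genes and their paralogs with at least 1 TPM in a library, grouped by family. Blue is CON and red is PKCi, 1 point per library. Adm and Ankrd37, which were not placed in a family, are not drawn. Vegfa (251 and 1157 TPM) and Ndrg1 (78.8 and 499 TPM) move far from their relatives, and Egln3 passes Egln1.

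Per gene length, the order of the 10 genes differed between the libraries. Untreated, Vegfa was highest at 251 TPM, followed by Hif1a at 216, Car9 at 148, Egln1 at 144, Egln3 at 126, P4ha1 at 95.9, Ndrg1 at 78.8, Bnip3 at 68.4, Adm at 10.6 and Ankrd37 at 3.54 TPM. Car9 and Egln1 were the only neighbours in that order whose 95% counting intervals overlapped. With PKCi the order was Vegfa at 1157 TPM, Ndrg1 at 499, Car9 at 251, Hif1a at 222, Egln3 at 194, Egln1 at 121, Bnip3 at 106, P4ha1 at 87.5, Ankrd37 at 24.2 and Adm at 3.89 TPM, and no neighbouring intervals overlapped. Vegfa and Ndrg1 together held 34.4% of the summed CPM of the 10 genes untreated and 70.3% with PKCi. The other 8 genes summed to 937 CPM untreated and 1066 CPM with PKCi.

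A wider list of 49 known HIF targets outside glycolysis, none of them among the 10, also held members on both sides. The 2-fold rule took 9 (22.0%) of 41 measured genes as higher and 3 (7.32%) as lower, beside 6.53% and 5.13% of all genes. This list was also chosen with earlier results of these data known, so these shares are a description only. The median log2 ratio was 0.43, with 28 above 0 and 13 below. Angptl4, a secreted regulator of lipoprotein lipase, was 5.97-fold higher (15.4 and 92.0 CPM, 95% interval 5.21 to 6.85), and Selenbp1, a selenium-binding protein, 3.98-fold higher from a low level (89 and 354 counts). Ddit4, an inhibitor of mTORC1, was at 113 and 287 CPM, and Mxi1, a MYC antagonist, at 23.4 and 61.4 CPM. Dusp1, a MAP kinase phosphatase, was 2.91-fold higher, the heme oxygenase gene Hmox1 2.58-fold, Kdm3a 2.54-fold, Narf 2.35-fold and the clock-related repressor gene Bhlhe40 2.07-fold higher. Several of these, Dusp1 and Hmox1 among them, respond to many signals besides HIF. The 3 that were lower were Stc2, a secreted glycoprotein gene (44.6 and 11.3 CPM, 3.96-fold, 95% interval 3.36 to 4.68), Lox, the collagen cross-linking lysyl oxidase (34.3 and 10.4 CPM, 3.30-fold, 95% interval 2.77 to 3.95), and the metallothionein gene Mt1 (498 and 231 CPM, 2.16-fold). Ak4, Cxcr4 and Nrn1 had 0 counts in both libraries.

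Glycolytic HIF targets were set beside these. Measured were 19 of 22 listed genes, and 0 passed 2-fold in either direction, beside 6.53% of all genes on the higher and 5.13% on the lower side, a difference too small to read in 19 genes. Their median log2 ratio was -0.06, and 7 lay above 0 and 12 below. The glucose transporter gene Slc2a1 was the highest, at 161 and 287 CPM (1.78-fold, 95% interval 1.70 to 1.87), and the aldolase gene Aldoc was 1.62-fold higher. The enzyme gene Gapdh was the lowest, at 332 and 206 CPM, 1.61-fold lower. Ldha, which makes lactate, was at 2789 and 2650 CPM, and Pgk1, a classic HIF target, at 1723 and 1835 CPM. Whether the glycolytic list differs from the targets outside glycolysis was not tested, since 1 library per group leaves no error to test it against.

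**Figure D4:**
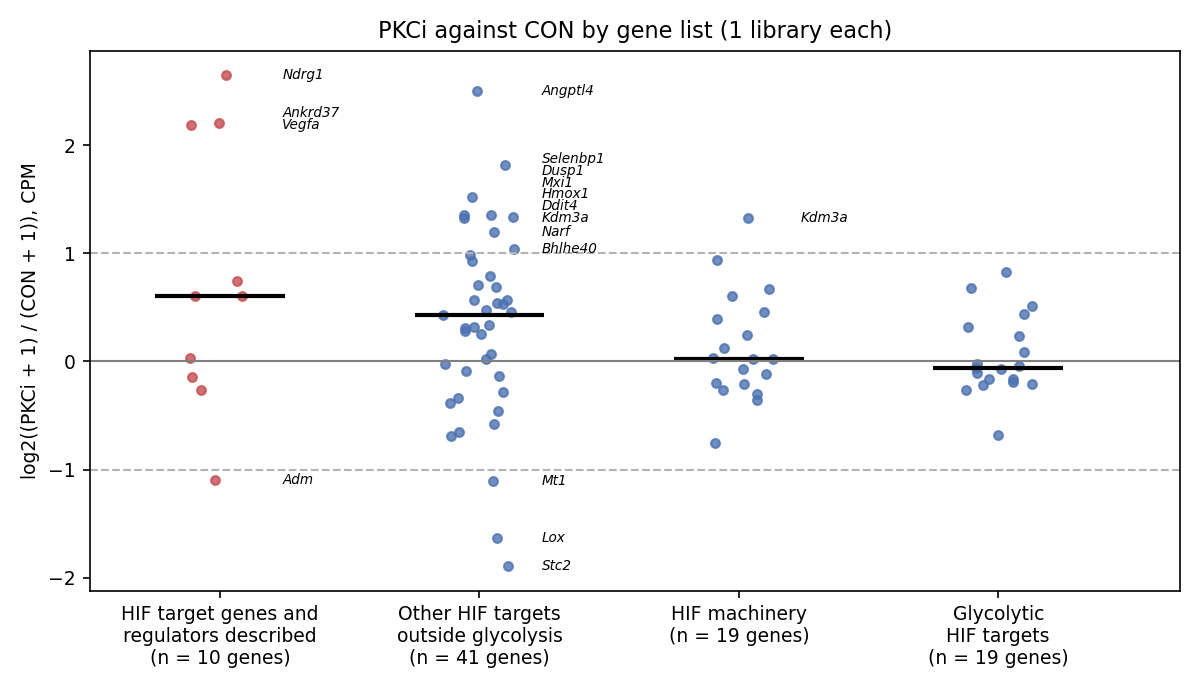
Log2 ratio of each measured gene (points) by list, with the list's median as a black bar at 0.61, 0.43, 0.03 and -0.06 from left to right, and dashed lines at 2-fold. Genes past 2-fold are named, with names spread apart where points lie close; the lists of machinery and of the other targets share Kdm3a and Cited2, and the machinery list shares Hif1a, Egln1 and Egln3 with the genes described.

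Gene counts summed to 16090186 untreated and 16071153 with PKCi. The keratin genes Krt8 and Krt18 of epithelial cells were abundant in both (933 and 1182 CPM for Krt8, 643 and 765 for Krt18), while the epithelial genes Epcam, at 3.48 and 6.28 CPM, and Cdh1, at 2.92 and 3.36 CPM, were low. Krt7, on the same list, was 1.46-fold lower (43.5 and 29.8 CPM), and of the 7 measured epithelial markers 6 lay above a log2 ratio of 0 and 1 below. Summed levels of 8 endothelial markers were 0.621 and 1.24 CPM, with none of the 8 at 1 CPM. The retina transcription factor genes Crx and Nrl had 0 counts in both libraries. Summed levels of 10 leukocyte markers were 8.51 and 3.61 CPM, with 7 at 0 in both libraries, Ptprc among them, and Lyz2 giving nearly all the counts. The 8 fibroblast markers summed to 101 and 38.3 CPM, most of it Pdgfrb (88.4 and 24.4 CPM), with Thy1 at 0. The 5 measured fibroblast markers went both ways, 3 above a log2 ratio of 0 and 2 below. Pdgfra had 43 and 97 counts, Col3a1 14 and 38 and Dcn 1 and 17, while Col1a1 had 143 and 70. Col3a1 and Dcn reached 1 CPM in the PKCi library only, so the filter kept them through the library where they were high. Col1a2, with 5 and 0 counts, was not measured. In bulk RNA, fewer cells of a type and less RNA per cell cannot be told apart. The part of these markers in the HIF gene differences was not tested.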

How the data were processed

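RNA of 2 cultures was sequenced, 1 library per group, and samples were grouped by the labelled treatment. Per the labels, poly(A) libraries were stranded and read from both ends, but an extraction text there speaks of retinas and of a kit that does not mark strand. The submitters' processing notes name HISAT2 2.0.5, GRCm38 and mm10. How reads were counted, and with which strand setting, is not given in the sources used here. Whole-number counts per gene were deposited by the authors, although the table's name speaks of FPKM. Per-sample columns without a sample numbered 0.

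Counts were divided by the library total for CPM, or by the listed gene length and scaled to 1000000 for TPM. Genes with at least 1 CPM in either library were measured, and the log2 ratio used a pseudocount of 1 CPM, which shrinks low genes. Folds are plain CPM ratios with exact conditional binomial (Clopper-Pearson) 95% intervals, and TPM intervals are exact Poisson. For a gene at 0 the limit was 3 counts. With 1 library per group, intervals and limits cover counting error only, and reads carried no molecular identifiers. All 10 genes had the start and end of GENCODE M21. The procedure was tested on simulated counts drawn with counting error only, so variation between cultures was not covered. Alternatives used edgeR 4.0.16 for TMM scaling only; Python 3.11.15, scipy 1.17.1 and matplotlib 3.10.9 did the rest.

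The 10 genes and all lists were chosen with earlier results of these data known. All 10 are named; of the other lists, genes at least 2-fold apart are named, and otherwise up to 4 with the largest log2 ratio, while others serve as family members or markers and were named after their values were seen.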

Additional observations from a re-analysis of the deposited data

How the results depend on the processing

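Scaling by TMM, by median-of-ratios size factors, by TPM or by a total without mitochondrial and the 10 most abundant genes, and pseudocounts of 0.1 and 5 CPM, left the sign of the log2 ratio of each of the 10 genes as reported. Ndrg1 ranged from 2.62 to 2.67, Vegfa from 2.18 to 2.21, Ankrd37 from 1.30 to 2.69, Adm from -1.41 to -0.57 and Hif1a from 0.02 to 0.05. The number of the 10 at least 2-fold higher was 3 under every setting run, no filter and a filter of 5 CPM included. The number at least 2-fold lower was 1 except with a pseudocount of 5 CPM, where it was 0. Over all genes, the 2-fold rule took 1398 as higher and 985 as lower in TPM, where 14174 genes passed the filter, and 449 and 324 with a pseudocount of 5 CPM, against 802 and 630. The median of the other HIF targets ranged from 0.30 to 0.46 and that of the glycolytic targets from -0.07 to -0.04. No scaling moved the median of all genes by over 0.1. No paired analysis was possible because each group held 1 library, and none could be left out. Depth limits Adm and Ankrd37 most, with 31 and 27 counts in their lower library.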
